A study of Homo sapiens with 16 samples.

Results

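The 10 genes described here encode nuclear-made proteins that copy the mitochondrial genome into RNA and then cut, stabilise or degrade that RNA: POLRMT, TFAM, TFB2M, LRPPRC, SLIRP, SUPV3L1, PNPT1, ELAC2, TRMT10C and HSD17B10. They were chosen by symbol from a list of names drawn up with earlier results of these data known. No threshold on a measured value was used, and all 10 were found among the 60669 genes of both deposited tables. The RNA came from HMC3, an established human microglial cell line, in cells labelled wild type and in cells labelled knockout of METTL3, the catalytic subunit of the enzyme that writes N6-methyladenosine (m6A) on RNA. No treatment is named for either group, and the labels give neither the edited allele nor whether the knockout is 1 clone. Smart-seq2, which amplifies polyadenylated RNA, was applied to 5 wild-type and 5 knockout-labelled samples, and 3 and 3 further libraries were made with a directional kit after ribosomal RNA was depleted, from 100 ng of RNA in either protocol. Nothing in the labels says that libraries of a group came from separate cultures, so the p-values measure the spread between these samples, which may be technical.

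Human mitochondria transcribe both strands of their small circular genome as long precursors, from a few start sites. POLRMT is the polymerase, TFAM bends and packages the DNA at those sites, and TFB2M helps to open it. Because tRNAs lie between most of the mRNAs, cutting out the tRNAs also frees the mRNAs. TRMT10C and HSD17B10 form mitochondrial RNase P together with the nuclease PRORP and cut in front of a tRNA, and ELAC2 cuts behind it. LRPPRC and its partner SLIRP bind the released mRNAs and keep them stable. The helicase SUPV3L1 and the nuclease PNPT1 form the complex that degrades mitochondrial RNA, including the antisense copies that could otherwise pair into double strands.

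The rRNA-depleted libraries are given as TPM, a length-corrected share that lets genes be compared within a library. The depth recovered from these values was 266157 to 1267171 reads per library, which is shallow, and wild-type library 2 was the shallowest. Knockout-labelled libraries 1 and 2 did not differ beyond sampling noise, which alone gives 1 (chi-square of 1.02 per degree of freedom over 10117 genes, p = 0.0687) and were averaged and counted as 1 sample, so that 3 wild-type samples were compared with 2 knockout-labelled ones. A gene was called where limma on log2(TPM + 1) gave a Benjamini-Hochberg adjusted p under 0.05 over all 14789 genes tested. Of all genes tested, 35.3% were called, 22.9% higher and 12.4% lower in the knockout-labelled libraries. The median log2 change of all genes was 0.41, and the changes of the 10 genes are also given relative to it. Median ratio scaling moved this median by -0.30 and the share of calls that were higher from 64.8% to 48.6%.

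METTL3 itself read 31.2, 31.6 and 25.4 TPM in the wild type, in the order of library numbers kept throughout, and 39.2, 39.96 and 42.7 TPM in the second group. The difference was not called (log2 change 0.48, adjusted p = 0.106 by limma), and the exact permutation test gave p = 0.2. That test doubles the smaller tail, and 0.2 is the smallest value it can give for 3 against 2 samples. In the authors' deposited table for the poly(A) libraries METTL3 changed by 0.09 ± 0.11 (SE, log2 scale; adjusted p = 0.654). Its RNA therefore does not check the label, since an edited gene can keep its RNA, and the second group is called knockout-labelled throughout. Of 15 microglia markers, 11 were at 0 in all 6 rRNA-depleted libraries, among them AIF1, CX3CR1, P2RY12 and TMEM119. The summed level of the microglia list was 47.0 to 67.3 TPM in wild type and 65.4 to 90.6 TPM in the knockout-labelled libraries, and that of 9 fibroblast and pericyte genes was 10747 to 13135 TPM against 1541 to 1712 TPM. Of these 9, COL1A1 (means of 10669 and 819 TPM), COL1A2 and PDGFRB fell, THY1 rose from 127 to 264 TPM, and the other 5 were not called or not tested. In the same libraries 4 epithelial keratin and adhesion genes summed to 730 to 804 TPM against 334 to 340 TPM, and their part in the results below, like that of the other marker lists, was not tested. In bulk RNA, fewer cells expressing a gene and less of its RNA per cell cannot be told apart.

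The upstream sequences of the 10 genes were searched because 2 nuclear factors, NRF1 and the ETS protein GABPA, are known to drive many genes for mitochondrial proteins. The search covered 250 bases before each RefSeq start (GRCh38.p14), on both strands, for GCGCA and GCGC 1 base apart (NRF1-like), for CCGGAAG (ETS-like) and for GAAA and GAAA 2 bases apart (interferon response element-like). The NRF1-like letters stood in POLRMT and TFAM and in 5.07% of all 35116 windows. The ETS-like letters stood in POLRMT, SLIRP, ELAC2 and TRMT10C, 4 of the 10 genes, and in 8.52% of all windows. The interferon response element-like letters stood in none of the 10 genes and in 3.02% of windows. The parts of these windows outside every exon of GENCODE 29 are shown for the 4 genes with an ETS-like match there, 5′ to 3′ on the gene's strand, with the ETS-like letters in capitals. They are chr19:633605-633787 on the minus strand (POLRMT), chr14:77708021-77708070 on the plus strand (SLIRP), chr17:13018188-13018277 on the minus strand (ELAC2) and chr3:101561618-101561861 on the plus strand (TRMT10C).
POLRMT: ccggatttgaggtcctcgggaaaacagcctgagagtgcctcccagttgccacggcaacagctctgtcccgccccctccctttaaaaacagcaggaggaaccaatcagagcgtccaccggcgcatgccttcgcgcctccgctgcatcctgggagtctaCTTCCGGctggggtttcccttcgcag
SLIRP: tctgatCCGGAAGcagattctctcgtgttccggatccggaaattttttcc
ELAC2: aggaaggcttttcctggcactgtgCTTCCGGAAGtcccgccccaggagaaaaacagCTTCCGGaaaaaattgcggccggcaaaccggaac
TRMT10C: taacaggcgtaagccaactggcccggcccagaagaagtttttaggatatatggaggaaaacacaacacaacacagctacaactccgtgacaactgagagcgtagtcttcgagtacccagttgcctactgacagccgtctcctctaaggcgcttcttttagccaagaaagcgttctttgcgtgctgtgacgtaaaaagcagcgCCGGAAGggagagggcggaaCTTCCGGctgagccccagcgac

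ELAC2 held 3 such matches, of which 2 overlap in the run of 10 capitals, and TRMT10C held 2. The NRF1-like matches of POLRMT, which overlap each other, and of TFAM lie inside annotated exons, 24 to 9 and 63 to 54 bases before the RefSeq start, and are not shown. The 50 bases of SLIRP are the whole gap between its first exon and that of ALKBH1, a demethylase gene read from the opposite strand. These 4 genes differed in the rRNA-depleted libraries: POLRMT fell, SLIRP rose, and ELAC2 and TRMT10C were not called. A match to letters is a description of sequence and not a measured binding site.

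In the rRNA-depleted libraries 6 of the 10 genes were called: TFAM, LRPPRC, SLIRP, SUPV3L1 and PNPT1 rose and POLRMT fell. TFB2M, ELAC2, TRMT10C and HSD17B10 were not called. The share called, 6 of 10, stands beside 35.3% of all genes, and 5 of 10 higher beside 22.9%. The median log2 change of the 10 was 1.16, or 0.74 above the all-gene median. In 8 of the 10 the groups did not overlap, which was so for 62.7% of all genes tested.

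Of the 3 genes that start transcription, POLRMT fell, TFAM rose and TFB2M was not called. POLRMT (ENSG00000099821, chromosome 19, 617224 to 633604, minus strand), the polymerase, read 129, 117 and 103 TPM in wild type and 60.8, 64.7 and 85.7 TPM in the knockout-labelled libraries. Every knockout-labelled library was below every wild-type library. Its mean went from 116 ± 12.9 (SD, n = 3) to 74.2 ± 16.2 TPM (SD, n = 2). On the log2 scale that was -0.65 ± 0.19 (SE, adjusted p = 0.0456 by limma). Relative to the all-gene median the change was -1.06. These values rest on 58 to 121 reads per library. A processed copy, POLRMTP1, reached 11.6 TPM, and reads could be split between the 2.

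TFAM (ENSG00000108064, chromosome 10, 58385022 to 58399221, plus strand), which both starts transcription and coats the mitochondrial DNA, read 15.2, 31.4 and 23.5 TPM in wild type and 56.2, 59.1 and 46.1 TPM in the knockout-labelled libraries. The groups did not overlap, and wild-type library 2 was the nearest to the other group. The mean rose from 23.3 ± 8.11 (SD, n = 3) to 51.9 ± 8.19 TPM (SD, n = 2), or by 1.17 ± 0.34 on the log2 scale (SE, adjusted p = 0.0478 by limma), which is 0.76 relative to the all-gene median. TFB2M (ENSG00000162851, chromosome 1, 246540560 to 246566324, minus strand) read 80.5, 44.8 and 71.3 TPM in wild type and 39.9, 43.0 and 45.4 TPM in the knockout-labelled libraries. Its groups overlapped through wild-type library 2, where TFB2M had 8 reads, and it was not called (log2 change -0.54 ± 0.28 SE, or -0.95 relative to the all-gene median, adjusted p = 0.189 by limma). Without that library it fell by 0.79 on the log2 scale, with an adjusted p of 0.0264.

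The calls of POLRMT and TFAM lie close to the threshold and were lost in several subsets. For POLRMT the adjusted p by limma was 0.110, 0.0912 and 0.0586 without wild-type libraries 1, 2 and 3, and 0.0777 without knockout-labelled library 3. For TFAM it was 0.0622 and 0.0926 without wild-type libraries 1 and 3, and 0.0502 and 0.193 without knockout-labelled libraries 2 and 3. Leaving out knockout-labelled library 3 leaves the averaged libraries as the only knockout-labelled sample, which is then assumed to vary like the wild type.

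Both RNA-stabilising partners rose. LRPPRC (ENSG00000138095, chromosome 2, 43886508 to 43996005, minus strand), the large RNA-binding protein of the pair, read 32.7, 35.0 and 30.7 TPM in wild type and 89.3, 86.7 and 76.8 TPM in the knockout-labelled libraries. The 3 wild-type values lie within a narrow band, far below the other group. The mean was 2.51 times as high, at 82.4 ± 7.95 (SD, n = 2) against 32.8 ± 2.16 TPM (SD, n = 3), and the log2 change was 1.30 ± 0.15 (SE, adjusted p = 0.00408 by limma), or 0.89 relative to the all-gene median. LRPPRC had 33 to 309 reads per library, the deepest count among the genes that rose, and stayed called without any 1 library.

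SLIRP (ENSG00000119705, chromosome 14, 77708071 to 77761104, plus strand), the small partner that LRPPRC holds stable, read 5.38, 27.5 and 4.55 TPM in wild type and 72.6, 80.2 and 58.9 TPM in the knockout-labelled libraries. Wild-type library 2 stood well above the other two, and the groups did not overlap. The wild-type values rest on 2, 7 and 2 reads, against 57, 77 and 24 in the knockout-labelled libraries. The log2 change was the largest of the 10 genes, 2.76 ± 0.77 (SE), or 2.35 relative to the all-gene median, with an adjusted p of 0.0426 by limma. The call was lost without wild-type library 1 (adjusted p = 0.0987), wild-type library 3 (0.09) or knockout-labelled library 3 (0.231, all by limma). The GENCODE 29 span of SLIRP overlaps SNW1 on the opposite strand and C14orf178 on the same strand, and how strand was treated in the counting is not given in the sources used here. ALKBH1, which faces SLIRP across the 50-base gap shown above and was picked after its value was seen, rose from 14.2 ± 3.47 (SD, n = 3) to 34.6 ± 0.75 TPM (SD, n = 2; adjusted p = 0.0238 by limma).

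Both degradation factors rose too. PNPT1 (ENSG00000138035, chromosome 2, 55634265 to 55693910, minus strand), the nuclease, read 22.1, 24.2 and 24.5 TPM in wild type and 60.1, 58.7 and 47.8 TPM in the knockout-labelled libraries. Every knockout-labelled library was clear of the wild-type values, which lay within 3 TPM of each other. The mean rose from 23.6 ± 1.32 (SD, n = 3) to 53.6 ± 8.18 TPM (SD, n = 2), by 1.14 ± 0.19 on the log2 scale (SE, adjusted p = 0.00945 by limma). Relative to the all-gene median that was 0.73, and PNPT1 stayed called without any 1 library.

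SUPV3L1 (ENSG00000156502, chromosome 10, 69180232 to 69209099, plus strand), the helicase that unwinds RNA for PNPT1, read 8.27, 14.5 and 9.78 TPM in wild type and 31.3, 30.7 and 30.2 TPM in the knockout-labelled libraries. The knockout-labelled values were nearly equal and above all wild-type values. The log2 change was 1.45 ± 0.32 (SE, adjusted p = 0.0221 by limma), or 1.04 relative to the all-gene median, on 5 to 7 wild-type reads per library. Without wild-type library 3 the adjusted p was 0.0515, and without knockout-labelled library 3 it was 0.147.

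None of the 3 tRNA-processing factors among the 10 genes was called. PRORP, the nuclease of RNase P and outside the 10, was picked after its value was seen. It fell from 14.4 ± 4.80 (SD, n = 3) to 3.77 ± 0.0976 TPM (SD, n = 2), on 4 to 23 reads per library. The log2 change was -1.65 ± 0.41 (SE, adjusted p = 0.0317 by limma). In the authors' deposited table PRORP was not called (-0.15 ± 0.47 SE, adjusted p = 0.873), at a mean normalised count of 6.34. TRMT10C (ENSG00000174173, chromosome 3, 101561862 to 101566446, plus strand), the methyltransferase subunit of RNase P that grips the tRNA, read 30.0, 5.48 and 6.34 TPM in wild type and 62.1, 78.3 and 47.9 TPM in the knockout-labelled libraries. The groups did not overlap, but wild-type library 1 held 8 reads where the others held 1 and 2. The log2 change of 2.37 ± 0.75 (SE), or 1.96 relative to the all-gene median, had an adjusted p of 0.0603 by limma. Without wild-type library 1 it was 3.10 with an adjusted p of 0.0108. With all libraries kept, TRMT10C was also called with 6 separate libraries, with TPM rescaled over protein-coding genes and with limma-voom. The call thus depends on 1 library and on the processing.

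HSD17B10 (ENSG00000072506, chromosome X, 53431258 to 53434373, minus strand), the RNase P subunit that is also a dehydrogenase of isoleucine breakdown, was the most abundant of the 10 genes per length. It read 121, 148 and 188 TPM in wild type and 192, 155 and 174 TPM in the knockout-labelled libraries, and the groups overlapped. The log2 change was 0.21 (95% interval -0.30 to 0.72, adjusted p = 0.452 by limma). ELAC2 (ENSG00000006744, chromosome 17, 12992391 to 13018187, minus strand), which cuts behind the tRNA, read 71.4, 48.9 and 67.0 TPM in wild type and 72.4, 72.5 and 73.3 TPM in the knockout-labelled libraries. Its groups were separated by less than 1 TPM, and the log2 change was 0.24 (95% interval -0.27 to 0.74, adjusted p = 0.398 by limma). Neither interval excludes a rise of 0.7. Relative to the all-gene median the estimates were -0.20 for HSD17B10 and -0.17 for ELAC2. The gene AC233728.1 overlaps HSD17B10 on the same strand, so reads could be split between them.

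**Figure D1:**
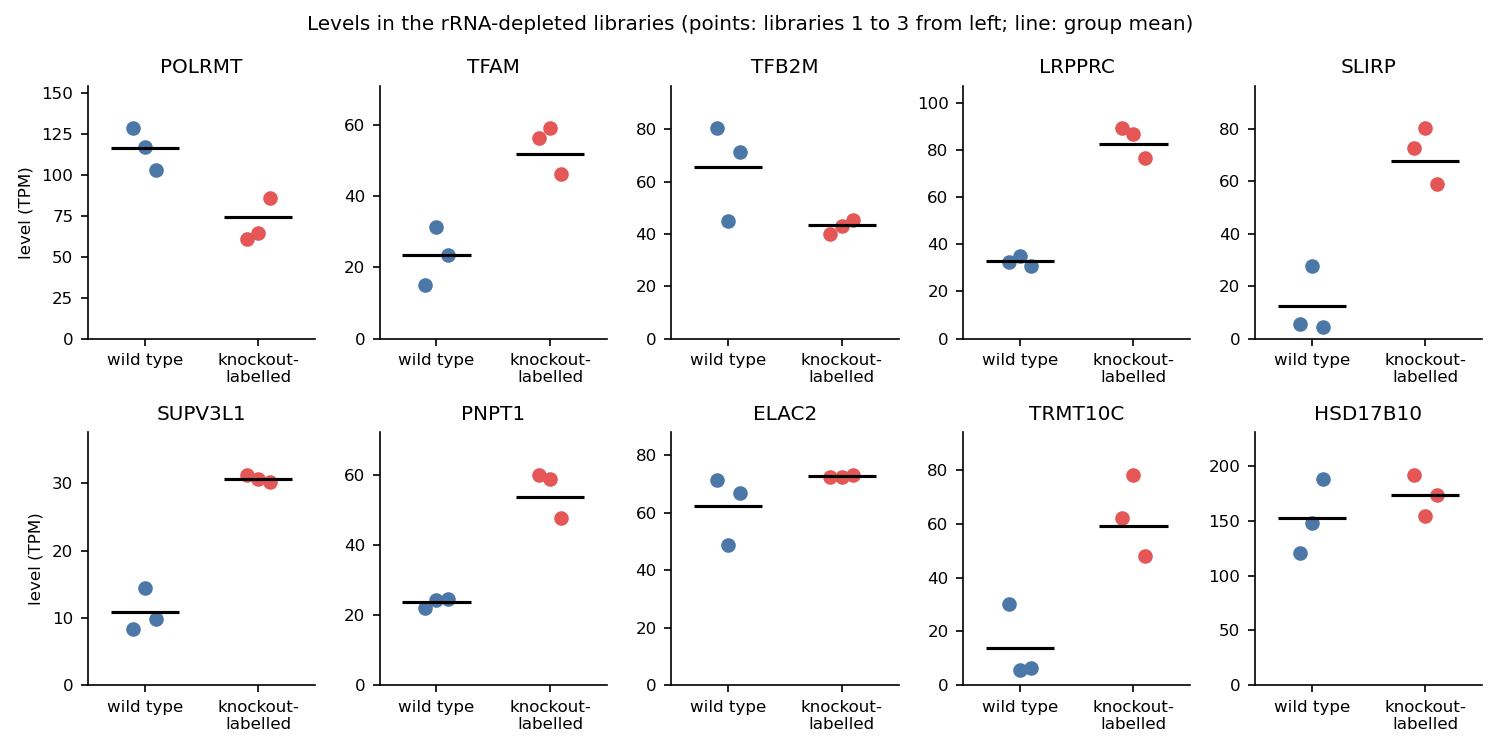
TPM of each of the 10 genes in the 6 rRNA-depleted libraries (points; linear axes from 0), with the mean of each group as a line and the averaged libraries 1 and 2 counted once in the knockout-labelled mean. LRPPRC, PNPT1 and SUPV3L1 show tight, separate groups, SLIRP and TRMT10C show 1 wild-type library far above the other two, and HSD17B10 and TFB2M overlap.

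In the wild-type libraries the 10 genes were ordered by their mean TPM, a level per length, and each was set against its neighbour in that order. HSD17B10 and POLRMT were highest (152 ± 33.8 and 116 ± 12.9 TPM, SD, n = 3), with overlapping ranges. TFB2M and ELAC2, which overlap each other, followed at 65.5 ± 18.5 and 62.5 ± 11.9 TPM, below all POLRMT values. LRPPRC, at 32.8 ± 2.16 TPM, overlapped neither ELAC2 above it nor PNPT1 below it, although TFAM reached 31.4 TPM in wild-type library 2. PNPT1, TFAM, TRMT10C, SLIRP and SUPV3L1 were lowest, and each of these overlapped its neighbour in the order. In the knockout-labelled libraries HSD17B10 was still highest, at 174 TPM, and LRPPRC, POLRMT, ELAC2, SLIRP, TRMT10C, PNPT1 and TFAM formed 1 run of overlapping ranges below it. TFB2M and SUPV3L1 stood apart at the bottom, with means of 43.4 ± 2.82 and 30.6 ± 0.596 TPM (SD, n = 2).

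Ratios taken within a library describe the balance of partners without any scaling between libraries. The ratio of TFAM to POLRMT was 0.118, 0.268 and 0.229 in wild type and 0.924, 0.914 and 0.538 in the knockout-labelled libraries, higher in each of the latter. The ratio of TRMT10C to HSD17B10 was 0.249, 0.0369 and 0.0337 against 0.323, 0.506 and 0.276, again without overlap. The ratio of SLIRP to LRPPRC was 0.165, 0.787 and 0.148 against 0.813, 0.924 and 0.768, which overlap because wild-type library 2 was above knockout-labelled library 3. The ratio of the nuclease PNPT1 to the helicase SUPV3L1 was 2.67, 1.67 and 2.50 against 1.92, 1.91 and 1.59, which overlap. Exact two-sided permutation tests gave p = 0.2 for the first 2 ratios, the smallest this doubled-tail test can give here, and 0.4 for the other two. With the ratio of TFB2M to POLRMT as the fifth (p = 1), the adjusted exact permutation p was 0.5 for these 4 ratios. With the trend on GC content removed, as described below for single genes, the log2 difference between groups was 0.15 for TFAM to POLRMT, against 1.86. For TRMT10C to HSD17B10 it was 1.07, against 2.30. The values with the trend removed come from log2(TPM + 1) and the others from TPM. The part of this change of scale was not tested.

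The poly(A) libraries gave another picture of the 10 genes. In the authors' deposited table, with its sign read as knockout over wild type, LRPPRC and PNPT1 rose, SLIRP and HSD17B10 fell, and the other 6 genes were not called at an adjusted p of 0.05. The 4 called of 10 stand beside 19.9% of the 14009 genes with an adjusted p (9.55% higher and 10.3% lower). The median log2 fold change of the 10 was 0.03, against 0.02 for all genes in the authors' deposited table. None of the 10 reached an absolute log2 fold change of 1.

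PNPT1 and LRPPRC were higher in both library types. The authors' deposited table gives PNPT1, a gene that type I interferon can induce, a log2 fold change of 0.52 ± 0.07 (SE, adjusted p = 3.38e-11) at a mean normalised count of 380. It gives LRPPRC 0.47 ± 0.09 (SE, adjusted p = 5.83e-06) at a mean of 395 in the authors' deposited table. In the rRNA-depleted libraries, fitted on another scale, the changes were 1.14 and 1.30, and 0.21 and 0.44 with the trend on GC content removed, so which library type shows the larger change depends on that step.

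SLIRP had opposite signs in the library types. In the authors' deposited table it fell by 0.50 on the log2 scale (SE 0.15, adjusted p = 0.00564) at a mean normalised count of 375, while in the rRNA-depleted libraries it rose by 2.76 from 2 to 7 reads per wild-type library. The difference between the library types was not tested, since the deposited table holds no value for a single library. HSD17B10 fell by 0.44 (SE 0.13, adjusted p = 0.00775) in the authors' deposited table and was not called in the rRNA-depleted libraries.

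The 3 genes of transcription initiation were not called in the authors' deposited table: TFAM had a log2 fold change of 0.09 ± 0.09 (SE, adjusted p = 0.553), TFB2M -0.09 ± 0.17 (0.783) and POLRMT -0.09 ± 0.43 (0.919). POLRMT was barely sampled there, with a mean normalised count of 7.28 in the authors' deposited table, although it was the second most abundant of the 10 genes in the wild-type rRNA-depleted libraries. Its SE in the authors' deposited table is correspondingly wide. SUPV3L1, at 0.02 ± 0.13 (SE, adjusted p = 0.94), TRMT10C, at 0.15 ± 0.11 (0.397), and ELAC2, at 0.04 ± 0.08 (0.801), were not called in the authors' deposited table either.

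**Figure D2:**
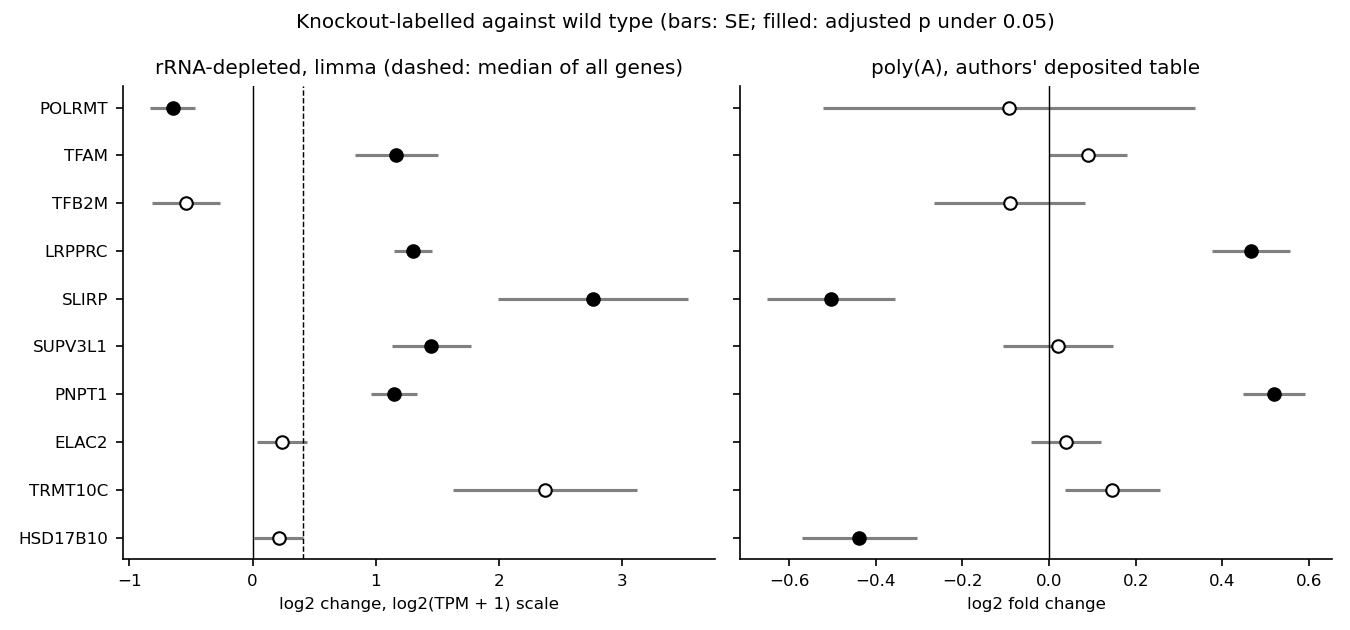
Log2 change of each of the 10 genes, knockout-labelled over wild type, in the rRNA-depleted libraries (limma on log2(TPM + 1)) and in the authors' deposited table for the poly(A) libraries, with bars of 1 SE and filled points for an adjusted p under 0.05. LRPPRC and PNPT1 are filled and above 0 in both, and SLIRP is filled with opposite signs (2.76 and -0.50).

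Base composition moved with the changes in the rRNA-depleted libraries, for all genes and for these 10. Over all genes tested the median log2 change fell from 1.19 at a transcript GC content of up to 40% to -0.33 above 60%, passing 0.90, 0.60, 0.19 and -0.01 in the bins between. POLRMT, which fell, has a GC content of 66.3%, higher than 97.9% of genes. The 5 genes that rose lie at 38.4% (TFAM), 39.4% (SLIRP), 40.8% (PNPT1), 42.4% (LRPPRC) and 45.7% (SUPV3L1). TRMT10C, at 39.1%, shares their range, while ELAC2 (54.3%) and HSD17B10 (57.6%) lie in the bins where the median change is near 0. TFB2M goes against this order, with a GC content of 41.9% and a log2 change of -0.54.

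With the trend on GC content removed, none of the 6 calls remained, while 26.5% of all genes tested were still called, and 42.9% of those calls were higher. The log2 change then became -0.05 for POLRMT (adjusted p = 0.883), 0.10 for TFAM (0.87), 0.44 for LRPPRC (0.106), 1.75 for SLIRP (0.168), 0.75 for SUPV3L1 (0.172) and 0.21 for PNPT1 (0.448, all by limma). TFB2M was the 1 gene called in that fit, with a log2 change of -1.42 and an adjusted p of 0.0131. LRPPRC and PNPT1 were called in 18 of the 19 other settings tried, all but this one. SUPV3L1 was called in 13 of the 19, POLRMT in 11, SLIRP in 9 and TFAM in 7. The part of GC content in the library preparation, as against the cells, was not tested.

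**Figure D3:**
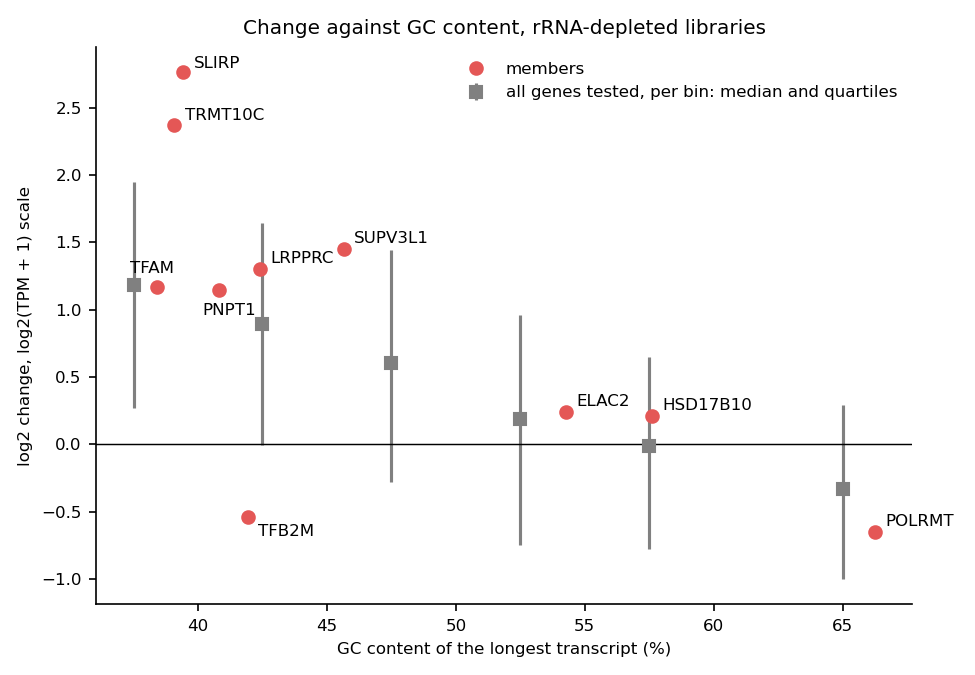
Log2 change in the rRNA-depleted libraries against the GC content of the longest GENCODE 29 transcript, for the 10 genes (red) and for all genes tested in bins of GC content (grey squares, median; bars, quartiles). The bin medians fall from 1.19 to -0.33, POLRMT sits at the GC-rich end, and TFB2M lies below the lower quartile of its bin.

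The letters GGACT, the commonest form of the site at which METTL3 methylates, were counted on the transcript strand of the longest transcript. The 10 genes had a median of 1.20 per kb, against 0.89 for all genes tested. SUPV3L1 had the most per kb, 3.22 from 8 sites, followed by SLIRP (2.31 from 2) and POLRMT (2.09 from 8). LRPPRC had 8 sites and TFAM, PNPT1 and ELAC2 had 5 each. TFB2M, TRMT10C and HSD17B10 had none, 30% of the 10 against 13.1% of all genes. The 3 without such letters include none of the 6 genes called in the rRNA-depleted libraries, but HSD17B10 fell in the authors' deposited table. TFB2M was called with the GC trend removed, and TRMT10C in 5 of 19 alternatives. The transcripts of TFB2M, TRMT10C and HSD17B10 have 1848, 1819 and 960 bases, among the shortest of the 10. The part of length in these counts was not tested. m6A was not measured in these libraries.

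Other genes of the pathway were called in both directions, and each count below stands beside 35.3% of all genes called, 22.9% higher and 12.4% lower. Among 17 partners in transcription and mitochondrial DNA maintenance 4 rose and 4 fell in the rRNA-depleted libraries, with a median change 0.18 below the all-gene median (-0.18). MGME1, a nuclease of mitochondrial DNA, rose by 1.92, and the single-stranded DNA-binding protein SSBP1 rose by 1.15 but fell by 0.41 in the authors' deposited table. With the trend on GC content removed SSBP1 was not called in the rRNA-depleted libraries (0.12, adjusted p = 0.674 by limma). CLPX, the unfoldase of a matrix protease, had the reverse pattern, a log2 change of -1.25 and then 0.39 in the authors' deposited table, both called. MTERF1, a transcription terminator, rose by 3.23 from 1 wild-type read in all. Among 18 other processing and decay factors 5 rose and 3 fell. LACTB2, an endonuclease, rose by 4.29 from 1 wild-type read, and the size of both these changes depends on the pseudocount. FASTKD2, an RNA-binding protein of the matrix granules, rose by 2.29 from 2 to 5 wild-type reads per library. In the authors' deposited table GRSF1, a granule protein, rose by 0.54 and the helicase DDX28 fell by 0.66.

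Of 27 enzymes and assembly factors that modify mitochondrial RNA or handle its ribosome, 3 rose and 4 fell. TRIT1, a tRNA-modifying enzyme, rose by 1.76. TRUB2, a pseudouridine synthase, fell in both library types, by 0.79 and, in the authors' deposited table, by 0.44, and NGRN, which acts in ribosomal RNA stability, fell by 2.36. METTL17 rose by 0.36 in the authors' deposited table. Among 9 nuclear regulators tested 2 rose and 2 fell: NRF1, whose motif was searched above, rose by 1.91, GABPB1, the partner of the ETS protein GABPA, fell by 1.34, and PPRC1 rose by 0.52 in the authors' deposited table. The 16 genes of mitochondrial structure and import had 9 higher, 2 lower and a median 0.50 above that of all genes. The chaperones HSPD1 (1.42) and HSPA9 (2.33), the channel VDAC1 (2.37) and the import pore TIMM23 (1.31) rose in both library types, although TIMM23 was not called with the GC trend removed (0.75, adjusted p = 0.0522 by limma). VDAC3 rose by 2.47, and TIMM44 fell by 0.47 in the authors' deposited table.

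Many of these list calls were lost without knockout-labelled library 3, as were most calls over all genes. The loss was thus not confined to these lists, and whether it was larger in them than over all genes was not tested. That fit keeps the averaged libraries as the only knockout-labelled sample. The counts called fell from 8 to 3 for the transcription partners, from 8 to 0 for the other processing and decay factors, from 7 to 4 for the modification enzymes, from 4 to 0 for the regulators and from 11 to 1 for the structure and import genes. Without wild-type library 3 the processing and decay factors fell to 4 and the regulators to 2, while calls over all genes went from 5220 to 4372. Of the 16 genes named from these lists and called in the rRNA-depleted libraries, 12 were lost without knockout-labelled library 3. MGME1, TRUB2, NGRN and HSPD1 stayed called without any 1 library. In the authors' deposited table, however, MGME1 (0.12 ± 0.11 SE, adjusted p = 0.475) and NGRN (-0.08 ± 0.13 SE, 0.745) were not called. TRUB2 and HSPD1 were called there with the same sign.

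The balance of these lists also moved with base composition and scaling. With the GC trend removed the transcription partners had 1 higher and 4 lower, the other processing and decay factors 1 and 4, the modification enzymes 0 and 6, the regulators 1 and 2, and the structure and import genes 6 and 3. With median ratio scaling the same lists had 3 higher and 5 lower, 4 and 6, 1 and 7, 1 and 3, and 8 and 3. Of the 16 named calls 7 were lost with the GC trend removed: MTERF1, SSBP1, LACTB2, FASTKD2, TRIT1, NRF1 and TIMM23. NRF1 kept its call in 10 of 19 alternatives.

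**Figure D4:**
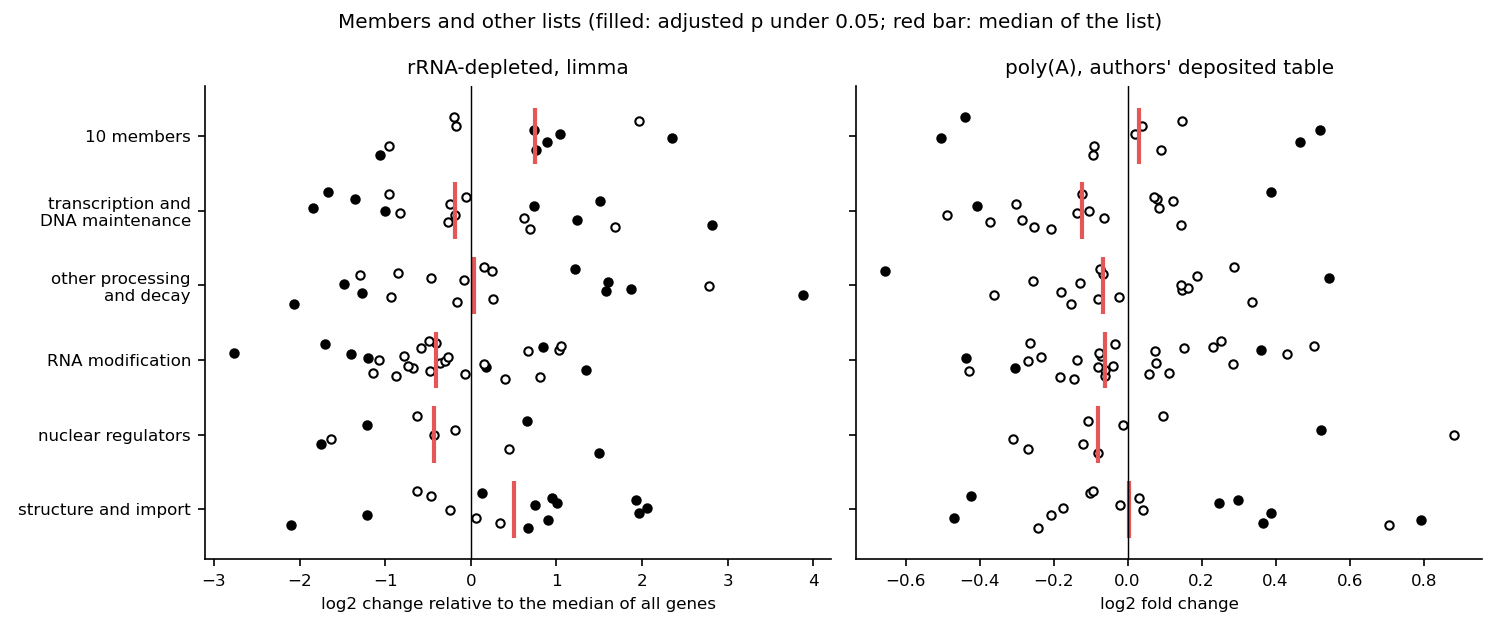
Log2 change of each gene of the lists, knockout-labelled over wild type, relative to the all-gene median in the rRNA-depleted libraries (left) and as given in the authors' deposited table (right), 1 row per list with its median as a red bar and filled points for an adjusted p under 0.05. In the rRNA-depleted libraries the list medians of the 10 genes (0.74) and of the structure and import genes (0.50) lie furthest above the all-gene median. Single genes of both lists lie on either side of it. The list medians in the authors' deposited table lie near 0.

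The RNAs on which the 10 proteins act were mostly called as well. In the rRNA-depleted libraries 11 of the 13 mitochondrial mRNAs rose, beside 22.9% of all genes, MT-ND6, the mRNA from the other strand, fell by 1.62, and MT-ATP8 was not called. Of the 13, 6 rose in the authors' deposited table, among them MT-ND6 by 0.44, the opposite sign, and MT-ND3, MT-CO3 and MT-ATP8 fell by 0.84, 0.62 and 0.45. MT-ND3 and MT-CO3 also had opposite signs, since they rose by 1.59 and 3.25 in the rRNA-depleted libraries. How strand was treated in counting either library type is not given in the sources used here. Its part in the MT-ND6 values was not tested. Without knockout-labelled library 3 the calls of MT-ND3, MT-ND5, MT-ND6 and MT-CO2 were lost, with the averaged libraries as the only knockout-labelled sample. With the GC trend removed MT-ND3 was not called (0.62, adjusted p = 0.23 by limma), and 10 of the mRNAs were still called higher. The mitochondrial rRNAs went from 5529 to 307 TPM (MT-RNR1) and from 9259 to 465 TPM (MT-RNR2) in the rRNA-depleted libraries, and the part of the depletion step in this was not tested. In the authors' deposited table they rose by 0.72 and 0.65.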

How the data were processed

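Reads of 16 libraries were processed by the authors. Trimmomatic, STAR, DESeq2 and hg38 are named in the submitters' processing notes; the counting tool and annotation are not given in the sources used here. The authors deposited 1 comparison of the poly(A) libraries. Per the file headers it holds, for each gene, the mean normalised count (a signal over all these libraries), the log2 fold change and its SE, the Wald statistic (a score) and the raw and adjusted p-values. Its numerator is not stated and was read as knockout: of 177 genes called in both library types with log2 changes beyond 1 either way, 162 then shared their sign. TPM values, as deposited, were the starting point for the rRNA-depleted libraries. TPM is each gene's length-corrected abundance scaled to a fixed total per library.

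Reads were recovered from TPM with gene lengths of GENCODE 29 (GRCh38; 56927 of 60669 identifiers matched): 90.9% of values above 0 were whole, to within 0.02 reads, and all values of the 10 genes were. Counting error limits genes with few reads; no molecular identifiers are stated. Genes that reached 1 TPM in 3 or more libraries entered limma 3.58.1 under R 4.3.3 (eBayes with trend) on log2(TPM + 1), genotype as the term, Benjamini-Hochberg threshold 0.05; this scale understates changes of low genes. The step was tested on simulated data. Samples were grouped by title. Exact permutation tests used scipy 1.17.1, and other steps Python 3.11.15. GC content and GGACT came from the longest GENCODE 29 transcript; the GC trend was removed with a lowess curve of span 0.3. Promoters came from RefSeq, which matched all 10 genes.

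The 10 genes and the other lists were chosen with earlier results of these data known. Named besides the 10 were METTL3, the mitochondrial RNAs and, per list, genes called in both library types and at most the 2 with the largest change called in each. ALKBH1 and PRORP were added after their values were seen and are outside the counts of named calls. The alternatives were other pseudocounts, filters, scalings, tests and thresholds, the GC trend, and each library left out.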

Additional observations from a re-analysis of the deposited data

How the results depend on the processing

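The 6 calls among the 10 genes became 3 with a pseudocount of 0.1, with no filter on low values, with median ratio scaling or with eBayes without trend, 1 with the GC trend removed and 2 at an adjusted p of 0.01; leaving out 1 library gave 2 to 6, with 2 without wild-type library 3 or knockout-labelled library 3. Calls over all genes went from 5220 to 3321 after thinning to the shallowest library and to 2242 at 0.01, and lay between 1663 (without knockout-labelled library 3) and 5185 with 1 library left out. The share of calls that were higher, 64.8% in the main result, was 56.3% with 75th percentile scaling, 52.1% after quantile normalization, 52.5% with limma-voom and 42.9% with the GC trend removed. METTL3 was called with 6 separate libraries (0.46, adjusted p 0.0486) and reversed with the GC trend removed (-0.37, 0.271). ELAC2 reversed with median ratio scaling (-0.11) and limma-voom (-0.075), as did HSD17B10 (-0.14 and -0.11). The log2 ratio of TFB2M to POLRMT reversed with the GC trend removed (-1.37) and without wild-type library 2 (-0.15; -0.15 to 0.27 with 1 library left out). TRMT10C was called with 6 separate libraries (adjusted p 0.0156), protein-coding rescaling (0.0398) and limma-voom (0.000521), and TFB2M with limma-voom (-0.94, 0.0101). With a fold limit of 1 on the log2 scale added, the calls of the authors' deposited table went from 4 to 0 among the 10 genes and from 2782 to 647 over all genes; 1811 genes passed an adjusted p of 0.01. With 6 separate libraries and the replicate number as a block, 7 of the 10 genes (TRMT10C added, adjusted p 0.0202) and 6037 genes were called, against 7 and 6880 without the block. Same-numbered libraries did not deviate together (correlations 0.02, -0.02 and 0.01). Libraries of a group differed by a chi-square of only 1.02 to 1.54 per degree of freedom, so their deviations are largely counting noise. These correlations therefore cannot tell whether the numbers pair the libraries. The cause of these shifts was not tested. Depth limits SLIRP, SUPV3L1 and TRMT10C, which had 1 to 8 reads per wild-type library.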
